A study of Homo sapiens with 6 samples.

Results

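The 4 ID genes (ID1 to ID4) and the 3 E protein genes TCF3, TCF4 and TCF12 were followed on 6 expression arrays of the human leukaemia line MHH-cALL4. The genes, 7 of 33616 tested, were chosen by name, with earlier results of these data known. Each was read from its transcript cluster (the set of probes for a transcribed locus) with the highest mean signal. There were 3 arrays of cells given 1 µM ruxolitinib for 12 h and 3 of cells given the vehicle DMSO for 12 h. MHH-cALL4 is an established line of Philadelphia chromosome-like B-cell precursor acute lymphoblastic leukaemia, so both groups come from a single line, and ruxolitinib inhibits the kinases JAK1 and JAK2. The sample titles of the ruxolitinib arrays read MHH-cALL5 while their cell line field reads MHH-cALL4, and the field was followed. Whether replicates were separate cultures is not stated in the labels, so the p-values measure only the spread between these samples, which may be technical.

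E proteins are basic helix-loop-helix (bHLH) transcription factors that pair with each other or with tissue-restricted bHLH factors and bind the E-box, a short DNA motif. ID proteins have the helix-loop-helix but lack the basic region, so an ID protein joined to an E protein keeps it off DNA. TCF3 (also called E2A, the source of the splice forms E12 and E47), TCF12 (HEB) and TCF4 (E2-2) are the E proteins of vertebrates, and TCF3 is needed for commitment to the B lineage. Forced ID expression blocks B-cell development in mice. TCF4 here is the E protein and not the Wnt effector TCF7L2, which has also been called TCF4.

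All values are log2 signals made by RMA, a method that subtracts background, aligns the arrays and joins the probes of a cluster into 1 value. The array medians over all genes were 5.20 to 5.31. No detection calls were used and no background level was measured, so a signal below the medians may not be distinct from background. Ruxolitinib replicate 3 and DMSO replicate 1 stood apart from the other arrays by a high mean signal of 215 small and ribosomal RNA genes (rRNA, snRNA, snoRNA), at 8.45 and 8.48 against 7.94 to 8.17 on the other 4, and changes without both are given below. Among markers of B-cell precursors, CD79A lay at 16.82 to 17.25 and the terminal transferase gene DNTT at 19.38 to 19.74 over the 6 arrays. CD34, at 5.12 to 5.98, was close to the array medians. T-cell markers (CD3D, CD3E, CD3G, CD2, CD5) lay between 3.85 and 6.24. Of 8 measured B-cell precursor markers 0 passed the test in limma, and at an unadjusted p under 0.05 2 were higher and 0 lower, beside 2.68% and 6.85% of all genes.

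The sequences just upstream of ID2, ID3 and BHLHE40 are shown because ID2 and BHLHE40 both fell, while ID3, the other bright ID gene, did not pass the test. Each is the 250 bases before the RefSeq start of the gene (GRCh38.p14), read 5′ to 3′ on the gene's strand. Capitals mark CANNTG, the E-box, and TTCNNNGAA, the core spacing bound by STAT5. Both patterns read the same on either strand, and no 2 marked matches overlap. The windows are chr2:8681806-8682055 (plus strand) for ID2, chr1:23559502-23559751 (minus strand) for ID3 and chr3:4979187-4979436 (plus strand) for BHLHE40.
ID2: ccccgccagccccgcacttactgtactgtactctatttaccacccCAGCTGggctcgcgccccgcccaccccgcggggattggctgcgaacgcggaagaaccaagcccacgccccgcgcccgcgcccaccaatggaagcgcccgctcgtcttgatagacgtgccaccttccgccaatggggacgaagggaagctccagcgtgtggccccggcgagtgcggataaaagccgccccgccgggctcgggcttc
ID3: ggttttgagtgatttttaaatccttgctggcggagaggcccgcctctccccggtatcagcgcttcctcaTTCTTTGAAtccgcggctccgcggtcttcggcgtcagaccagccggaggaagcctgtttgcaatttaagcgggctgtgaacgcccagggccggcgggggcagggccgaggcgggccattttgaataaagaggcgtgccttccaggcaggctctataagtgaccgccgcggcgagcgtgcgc
BHLHE40: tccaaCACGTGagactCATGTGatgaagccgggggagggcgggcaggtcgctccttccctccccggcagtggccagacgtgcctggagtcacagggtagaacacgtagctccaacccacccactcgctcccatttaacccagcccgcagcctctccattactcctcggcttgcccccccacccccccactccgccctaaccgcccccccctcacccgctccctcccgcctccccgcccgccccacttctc
The ID2 window held 1 E-box, CAGCTG, starting 205 bases before the gene, and 0 matches to TTCNNNGAA. The ID3 window held 0 E-boxes and 1 match, TTCTTTGAA, at 181 bases. BHLHE40 had 2 E-boxes, CACGTG at 245 and CATGTG at 234 bases, and 0 STAT-type matches. Of 35116 windows of this length, 61.8% held CANNTG, 6.34% held its form CACGTG and 6.57% held TTCNNNGAA. Which factors bind which form of the E-box was not examined. ID1 had neither pattern, and ID4 had 1 E-box (CAGCTG, 21 bases before the start). Of the E protein genes, TCF3 had neither in its 1 window. TCF12 had an E-box in 2 of 5 windows and TTCNNNGAA in 0. TCF4 had an E-box in 5 of 10 windows and TTCNNNGAA in 2. A match is a string of letters and not a shown site, and a window without one says nothing of the factor elsewhere in the locus.

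ID2 was the member that fell with ruxolitinib. It fell to 8.27, 8.50 and 8.52 on the ruxolitinib arrays, against 11.40, 11.42 and 11.29 on the DMSO arrays (cluster TC0200006627.hg.1). The groups were far apart, with a gap of 2.77 between the highest ruxolitinib and the lowest DMSO array, and the replicates of each group lay close together. The means were 8.43 ± 0.14 with ruxolitinib and 11.37 ± 0.07 in DMSO (SD, n = 3 each), a log2 change of -2.94 (95% interval -3.31 to -2.56), or a signal 7.66-fold lower (interval 5.91 to 9.93). The adjusted p was 8.61e-06 (limma, Benjamini-Hochberg over all genes). By p it stood at place 7 of all genes. ID2 was the only one of the 7 genes past the threshold, where 1.14% of all genes passed in either direction and 1.04% as lower. In 15 alternative settings, each array left out included, its change stayed between -2.98 and -2.85 (-2.97 without both arrays that stood apart) and its adjusted p (limma) reached at most 0.000629.

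**Figure D1:**
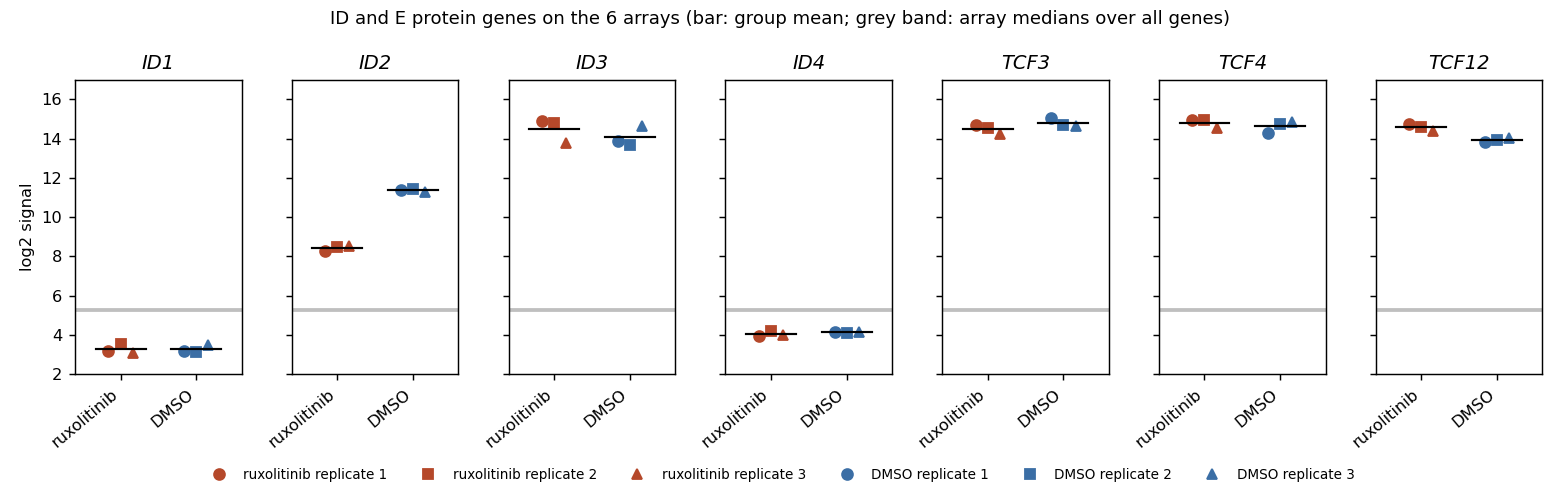
Log2 signal (vertical axis) of the 4 ID and 3 E protein genes on each array, ruxolitinib left of DMSO in each panel, with bars at the group means and a grey band at the array medians over all genes (5.20 to 5.31). ID2 lies at 8.27 to 8.52 with ruxolitinib and 11.29 to 11.42 in DMSO, ID1 and ID4 lie below the band on every array, and the 3 E protein genes lie above 13.8 on every array.

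ID3, the ID gene known for loss-of-function mutations in Burkitt lymphoma, was bright and did not pass. Its signals were 14.91, 14.80 and 13.79 with ruxolitinib, against 13.86, 13.69 and 14.63 in DMSO (cluster TC0100013293.hg.1). The groups overlapped, since ruxolitinib replicate 3 lay with the lower DMSO arrays and DMSO replicate 3 with the higher ruxolitinib arrays. The change was 0.44 ± 0.32 (SE; 95% interval -0.26 to 1.13; adjusted p = 0.787, limma). The SD was 0.62 with ruxolitinib and 0.50 in DMSO, the widest spread of the 7 genes in both groups. Leaving out 1 array gave 0.23 (without ruxolitinib replicate 1) to 0.79 (without ruxolitinib replicate 3), and leaving out both arrays that stood apart gave 0.69 (adjusted p = 0.427, limma).

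ID1 and ID4 were dim on all arrays. ID1, a classical target of bone morphogenetic protein (BMP) signalling, had 3.16, 3.55 and 3.06 with ruxolitinib and 3.20, 3.14 and 3.51 in DMSO (cluster TC2000007083.hg.1). ID4 had 3.94, 4.21 and 4.01 with ruxolitinib and 4.17, 4.09 and 4.15 in DMSO (cluster TC0600007127.hg.1). Every one of these signals was below the array medians and both genes' groups overlapped. The changes were -0.03 for ID1 (95% interval -0.46 to 0.41) and -0.08 for ID4 (interval -0.46 to 0.29), with adjusted p of 0.99 and 0.959 (limma), and 0.03 for ID1 and -0.04 for ID4 without both arrays that stood apart. At such signals a change in the transcript could go unseen. So 2 of the 4 ID genes, ID2 and ID3, stood above the median gene, and in all 5 of the 7 genes did.

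The 3 E protein genes were bright in both groups and none passed the test (limma; at an unadjusted p under 0.05, 1 was higher and 0 were lower). TCF12 came closest. Its signals were 14.72, 14.60 and 14.40 with ruxolitinib, against 13.81, 13.95 and 14.04 in DMSO (cluster TC1500007333.hg.1). The groups did not overlap, by a gap of 0.36. The change was 0.64 ± 0.18 (SE; 95% interval 0.26 to 1.03), a 1.56-fold higher signal with an unadjusted p of 0.00368 and an adjusted p of 0.149 (limma). It ranged from 0.57 to 0.73 when each array was left out in turn and was 0.67 without both arrays that stood apart. At an unadjusted p under 0.05, 2 of the 7 genes passed, ID2 and TCF12, where 9.53% of all genes did. These 2 also had groups that did not overlap, where 14.2% of all genes did, 9.03% as lower and 5.14% as higher.

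TCF3 had 14.71, 14.52 and 14.24 with ruxolitinib, against 15.07, 14.70 and 14.65 in DMSO (cluster TC1900009176.hg.1). The groups overlapped narrowly, through ruxolitinib replicate 1. The change was -0.32 ± 0.20 (SE; 95% interval -0.75 to 0.12; adjusted p = 0.724, limma). DMSO replicate 1 held the highest and ruxolitinib replicate 3 the lowest value, and without these 2 arrays the change was -0.06. The cluster reports the gene as a whole, so E12 and E47 were not told apart.

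TCF4 had 14.97, 14.93 and 14.56 with ruxolitinib, against 14.29, 14.76 and 14.87 in DMSO (cluster TC1800008750.hg.1). The groups overlapped, and the lowest array of each group was the one that stood apart. The change was 0.18 ± 0.21 (SE; 95% interval -0.28 to 0.64; adjusted p = 0.901, limma), 0.01 without DMSO replicate 1 and 0.14 without both arrays that stood apart. A further, dimmer cluster carrying the TCF4 symbol without a gene identifier (TC1800007367.hg.1) lay at 5.68, 5.77 and 6.31 with ruxolitinib and 6.0, 5.62 and 5.49 in DMSO, a change of 0.22 ± 0.22 (SE). Its strand is not given, so whether it reads TCF4 itself or an antisense transcript is open. The number of this cluster adjoins that of the antisense transcript TCF4-AS1 (TC1800007368.hg.1). TCF4 was the only member with a second cluster. The antisense transcripts ID2-AS1 (0.00 ± 0.17) and TCF4-AS1 (-0.28 ± 0.18; log2 change, SE) were below the array medians on all 6 arrays and did not pass. Both antisense transcripts were looked up after the members' values were known.

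**Figure D2:**
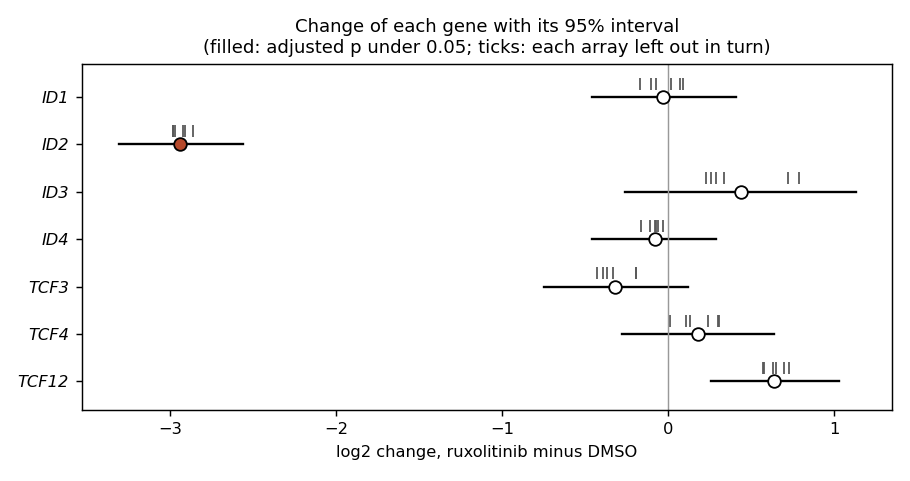
Log2 change, ruxolitinib minus DMSO (horizontal axis), of each gene with its 95% interval. Grey ticks are the changes with each array left out in turn. ID2, filled, is at -2.94 with all ticks between -2.98 and -2.86, TCF12 at 0.64 has an interval above 0 but an adjusted p of 0.149, and the other 5 intervals include 0.

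Whether members changed unequally was tested within arrays, by subtracting one gene's log2 signal from another's on each array and comparing ruxolitinib with DMSO. Of 21 pairs, 11 had groups that did not overlap, with an exact two-sided permutation p of 0.1, the smallest that 3 arrays against 3 allow, and an adjusted p of 0.191 over the pairs. All 6 pairs with ID2 were among them, which restates the fall of ID2 given above. The pairs of TCF12 with ID1, ID4, TCF3 and TCF4 were also among them, and the groups of TCF12 already did not overlap by themselves. The remaining pair was TCF3 minus TCF4. It stood at 0.78 on DMSO replicate 1, an array that stood apart, against -0.06 and -0.22 on DMSO replicates 2 and 3. How many pairs of other genes would not overlap was not counted. ID2 changed by -3.58 ± 0.19 relative to TCF12, by -3.38 ± 0.52 relative to ID3 and by -2.62 ± 0.24 relative to TCF3 (difference of log2 changes, SE, n = 3 per group). Among the E proteins, TCF3 changed by -0.96 ± 0.20 relative to TCF12, by -0.50 ± 0.31 relative to TCF4, and TCF4 by -0.46 ± 0.12 relative to TCF12. No pair could pass a threshold of 0.05 by this permutation test, so it cannot decide whether members changed unequally.

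The 3 genes whose signals ran closest to ID2 over the 6 arrays were BHLHE40, TMEM154 and JCHAIN, by Euclidean distance between signals centred on each gene's mean (0.47, 0.61 and 0.68 on the log2 scale). BHLHE40 encodes DEC1, a helix-loop-helix repressor. It fell to 4.0, 4.75 and 4.68 with ruxolitinib, against 7.21, 7.25 and 7.33 in DMSO, a change of -2.78 ± 0.22 (SE; 95% interval -3.26 to -2.31; adjusted p = 0.000101, limma). The groups were 2.46 apart, and the ruxolitinib signals were below the array medians, so the size of the fall may be understated. TMEM154, a membrane protein gene, had 10.17, 10.44 and 11.10 with ruxolitinib and 13.46, 13.78 and 13.32 in DMSO. JCHAIN, which encodes the joining chain of polymeric antibodies, had 15.42, 16.14 and 15.55 with ruxolitinib and 18.09, 18.57 and 18.37 in DMSO, a change of -2.64 ± 0.22 (SE; adjusted p = 0.000192, limma). Closeness here follows mainly from a fall of like size, and these genes were picked for it.

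**Figure D3:**
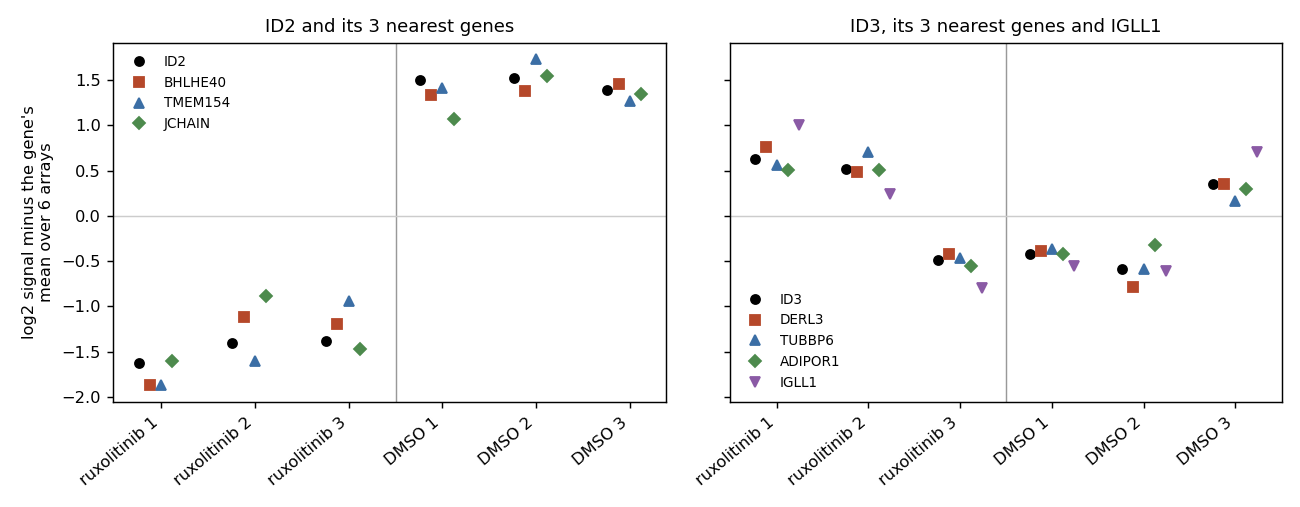
Log2 signal minus the gene's mean over the 6 arrays (vertical axis) on each ruxolitinib and DMSO array, for ID2 with its 3 nearest genes (left) and for ID3 with its 3 nearest genes and IGLL1 (right). The left panel splits by treatment, with ID2 at -1.63 to -1.38 on ruxolitinib arrays and 1.39 to 1.52 on DMSO arrays, whereas on the right ruxolitinib replicate 3 lies with DMSO replicates 1 and 2.

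Genes listed here as E protein targets in B-cell precursors mostly did not pass the test. Of 15 measured, 1 fell, 0 rose and 14 did not pass, beside 1.04% of all genes lower and 0.101% higher. The gene that fell was CDKN1A, the gene of the cyclin-dependent kinase inhibitor p21, whose role is not specific to the B lineage. It had 11.00, 10.88 and 10.60 with ruxolitinib, against 12.21, 12.06 and 12.23 in DMSO, a change of -1.34 ± 0.18 (SE; adjusted p = 0.00464, limma). The median change of the 15 genes was 0.14, against -0.02 for all genes, and 12 of them lay above 0, as did 46.6% of all genes.

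After CDKN1A, the recombinase genes RAG2 and RAG1 had the smallest p-values on this list. RAG2 had 13.70, 13.70 and 13.05 with ruxolitinib, against 12.07, 12.52 and 12.87 in DMSO, a change of 1.00 ± 0.25 (SE; adjusted p = 0.108, limma). RAG1 had 15.20, 15.52 and 15.53 with ruxolitinib, against 14.79, 14.92 and 14.85 in DMSO, a change of 0.56 ± 0.18 (SE; adjusted p = 0.236, limma). Neither gene's groups overlapped, and neither passed. VPREB1, a surrogate light chain gene (0.60 ± 0.21), and LEF1 (0.14 ± 0.17), both named after their values were seen, also had higher ruxolitinib signals without overlap. Of the 15 genes, 4 were higher and 1 lower without overlap, beside 5.14% and 9.03% of all genes. At an unadjusted p under 0.05 (limma) 3 were higher and 1 lower, beside 2.68% and 6.85% of all genes. The lineage factors EBF1 (0.14 ± 0.18) and PAX5 (-0.01 ± 0.21; log2 change, SE), also named after their values were seen, did not pass.

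**Figure D4:**
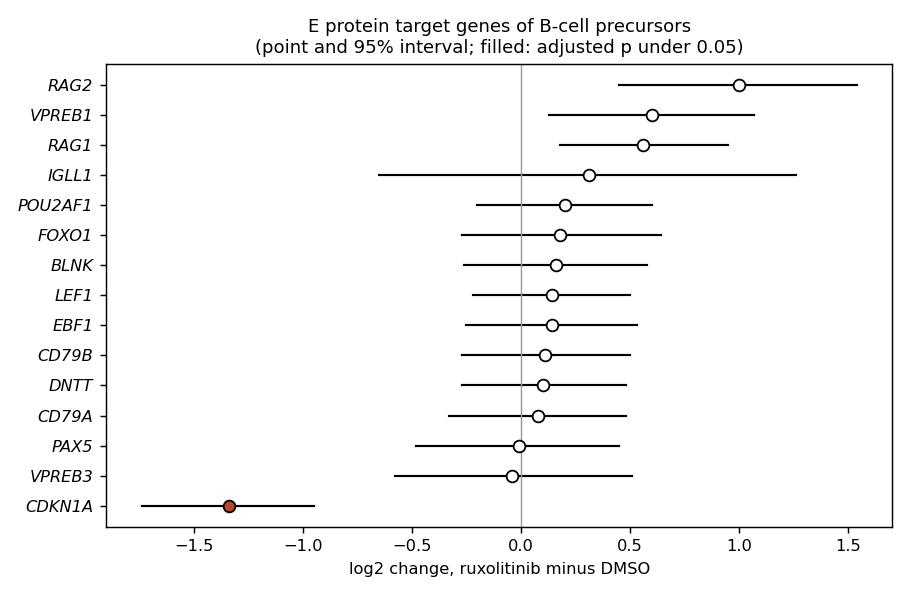
Log2 change, ruxolitinib minus DMSO (horizontal axis), of the 15 measured E protein target genes with 95% intervals, ordered by change. CDKN1A at -1.34 is the only filled point (adjusted p under 0.05), and RAG2 (1.00), VPREB1 (0.60) and RAG1 (0.56) have intervals above 0 without passing.

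Regulators upstream of the ID genes mostly did not pass the test. Among 17 genes of BMP and SMAD signalling, which drives ID transcription in many tissues, 0 passed in limma, and at an unadjusted p under 0.05 3 were higher and 0 lower, beside 2.68% and 6.85% of all genes. The smallest p-values belonged to NOG, which encodes the secreted BMP antagonist noggin (0.79 ± 0.22, adjusted p = 0.153), and the dim ligand gene BMP6 (0.44 ± 0.18, adjusted p = 0.435; log2 change, SE, limma). The inhibitory SMAD7 had a change of 0.57 ± 0.25 with overlapping groups. Of 4 measured EGR and STAT5 genes 1 fell and 0 rose, beside 1.04% of all genes lower and 0.101% higher (limma). The gene that fell was EGR1, an immediate early factor known to induce Id3 in mouse thymocytes. It had 5.81, 5.21 and 5.15 with ruxolitinib, against 7.52, 7.35 and 7.32 in DMSO (change -2.01 ± 0.21, adjusted p = 0.000762, limma). Ruxolitinib replicates 2 and 3 were below their array medians, so the size of the fall may be understated. STAT5A (0.39 ± 0.18) and STAT5B (0.35 ± 0.18) did not pass. Their groups did not overlap, with the higher signals under ruxolitinib, as in 5.14% of all genes. The dim EGR3 (-0.07 ± 0.18), named after its values were seen, did not pass either.

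Other genes that act on or with E proteins mostly did not pass. Among 26 tissue-restricted bHLH genes 0 passed (limma; 0 at an unadjusted p under 0.05 in either direction), and 4 of the 26 had a mean above that of the median gene. The smallest p-values belonged to the dim genes PTF1A (0.37 ± 0.19, adjusted p = 0.617) and OLIG2 (-0.31 ± 0.18, adjusted p = 0.67; log2 change, SE, limma). LYL1, a bHLH gene of blood progenitors, had a change of -0.16 ± 0.22 and TAL1, known from T-cell leukaemia, was dim at 3.60 to 4.36 with ruxolitinib and 3.92 to 4.25 in DMSO. Of 11 HES, HEY and BHLHE repressor genes, BHLHE40 fell and 0 rose, beside 1.04% of all genes lower and 0.101% higher. Its closest relative BHLHE41 had a change of -0.26 ± 0.18 at signals of 4.49 to 4.79 with ruxolitinib and 4.71 to 5.01 in DMSO. Among 18 cofactors of E proteins and genes of ID protein turnover 0 passed in limma, and at an unadjusted p under 0.05 2 were lower and 0 higher, beside 6.85% and 2.68% of all genes. These 2 were the acetyltransferase gene KAT2A (-0.58 ± 0.19, adjusted p = 0.275) and the corepressor gene CBFA2T3 (-0.52 ± 0.21, adjusted p = 0.438; log2 change, SE, limma). USP1, the deubiquitinase that stabilises ID proteins, had a change of 0.29 ± 0.23, and LDB1, which bridges bHLH complexes, one of -0.26 ± 0.19. The medians of these 3 lists were -0.01, -0.04 and -0.09.

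**Figure D5:**
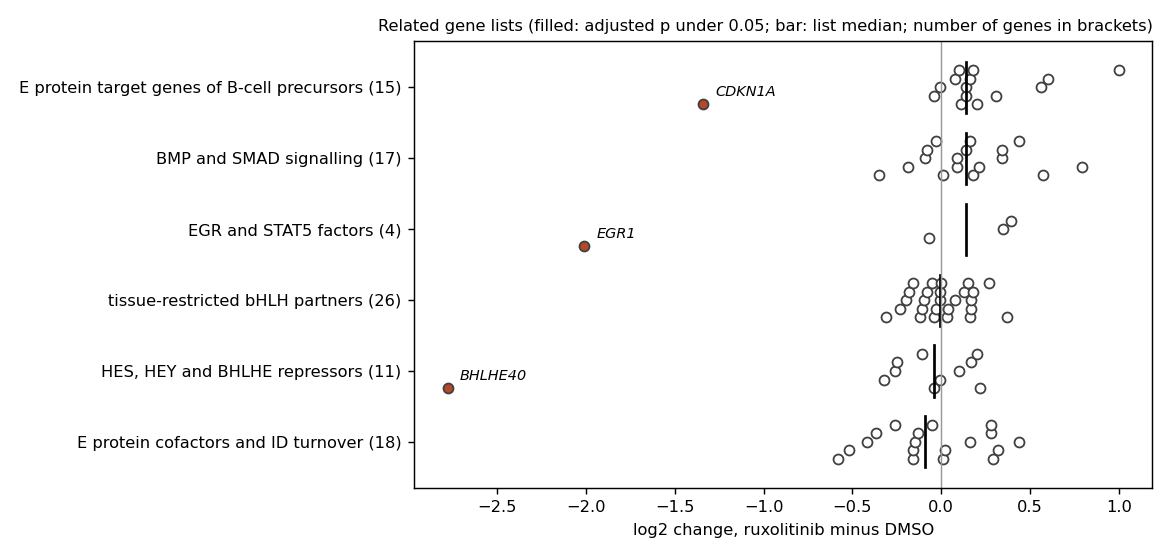
Log2 change, ruxolitinib minus DMSO (horizontal axis), of every measured gene in the 6 related lists, with list medians as bars and the number of genes in brackets. The only filled points (adjusted p under 0.05) are CDKN1A at -1.34, EGR1 at -2.01 and BHLHE40 at -2.78.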

How the data were processed

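RNA from 3 ruxolitinib and 3 DMSO samples was hybridised as biotinylated cRNA, per the labels' protocols. The deposited table holds log2 signals, 1 column per array, with a range of 1.99 to 19.9. Per the submitters' processing notes the tools were RMA, Transcriptome Analysis Console and Affymetrix Expression Console, with versions, annotation and filters not given in the sources used here. Precision is limited by the number of arrays, which have no read depth. Of 135750 rows, 36176 with exactly 1 gene symbol were kept, and 25516 symbols were matched to RefSeq through Entrez identifiers. Each gene took its row with the highest mean. Groups were compared with limma 3.58.1 under R 4.3.3, by a two-sided moderated test without covariates and with Benjamini-Hochberg adjustment over 33616 genes (threshold 0.05), and the code was tested on simulated data. The median standard error was 0.200.

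The members and lists were chosen with earlier results of these data known. Named were all members, list genes past the threshold (the 2 with the smallest p where none passed) with up to 2 more of each list, and the 3 genes nearest to a called member among those above the median level. Some genes of the lists are not reported here. Alternatives changed the spread model, normalization, filter, rows, array weights, replicate number and arrays included. No batch is given in the labels.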

Additional observations from a re-analysis of the deposited data

How the results depend on the processing

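ID2 kept its direction and its call in all 15 alternatives, as did BHLHE40, EGR1 and CDKN1A, and the counts of called genes among the members and in each of the 6 lists were the same in all of them. The other 6 members passed in none. ID1, dim and at -0.03, turned to 0.03 with array weights and to 0.03 without DMSO replicate 1 and ruxolitinib replicate 3, and ranged from -0.17 to 0.09 with 1 array left out. With 1 array left out, ID2 ranged from -2.98 to -2.86 (adjusted p 2.9e-05 to 0.000337, limma), TCF12 had an adjusted p (limma) of 0.171 to 0.433, and TCF4 lay between 0.01 and 0.31. Same-numbered replicates were not taken as pairs: deviations of same-numbered arrays correlated at -0.211, -0.085 and -0.396, and none correlated best with its own number. With the replicate block the change of ID2 was -2.94 (adjusted p = 0.000629, limma) and of TCF12 0.64 (adjusted p = 0.414, limma). Over all genes, 384 passed in the reported fit, 122 with the replicate block, 187 after quantile normalization and 101 to 291 with 1 array left out. The dim signals of ID1 and ID4 limit what can be seen of them, and both drop out where dim genes are filtered away.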

Other observations

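ID3 varied between arrays in a way that treatment did not order. Its 3 nearest genes over the 6 arrays, named after their values were seen, were DERL3, which encodes a protein of endoplasmic reticulum quality control (distance 0.25), the tubulin pseudogene TUBBP6 (0.28) and the adiponectin receptor gene ADIPOR1 (0.30). The signal of TUBBP6 may be shared with similar sequences. DERL3 had 11.23, 10.96 and 10.05 with ruxolitinib and 10.08, 9.69 and 10.83 in DMSO. IGLL1, a surrogate light chain gene outside the naming rule given above, had 13.97, 13.21 and 12.17 with ruxolitinib and 12.41, 12.36 and 13.67 in DMSO. It stood at place 255 of 16803 genes by distance from ID3 (0.67). In ID3, DERL3 and IGLL1 alike, ruxolitinib replicate 3 lay with DMSO replicates 1 and 2, and DMSO replicate 3 lay with ruxolitinib replicates 1 and 2. DERL3 was picked for its closeness to ID3 on these same arrays, so its like pattern follows from that choice. The small RNA signal was 8.45 on ruxolitinib replicate 3, 8.48 on DMSO replicate 1 and 8.08 on DMSO replicate 2. Its part in this pattern was not tested.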
